A study of Bos indicus with 12 samples.

Results

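Blood RNA of 6 Shweta Kapila cows, 3 classed as high-yielding and 3 as low-yielding, was compared by RNA sequencing. These are 6 of the 12 libraries of a study of Bos indicus cows, and the other 6 come from high- and low-yielding Gir cows, 3 in each class. Shweta Kapila and Gir are Indian dairy cattle. All cows were females in the second or the third lactation, none is described as treated, and yield classes were set within each breed from lactation records. The sources used here do not give the milk yields behind the classes or the stage of lactation at sampling. The 6 libraries were taken by breed and yield class from the labels, and are called high 1 to high 3 and low 1 to low 3 by their replicate numbers. Each is labelled as a separate cow, so a p-value here measures the spread between cows.

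Whole blood holds red cells, platelets and several kinds of white cell, and its messenger RNA is a mixture in which each kind contributes its own genes. T cells read foreign peptides through the CD3 receptor complex, while natural killer (NK) cells and cytotoxic T cells kill with granules of perforin and granzymes. B cells signal through CD79 and adaptors such as BLNK, and nearly all nucleated cells answer interferon with antiviral genes such as MX1 and MX2. In bulk RNA of this kind, fewer cells of a type and less RNA per cell cannot be told apart. The labels name mononuclear cells, whereas the extraction kit they name, PAXgene Blood RNA, is made for whole blood. Defining markers of T cells (CD3E), B cells (CD79A), neutrophils (CSF3R, CXCR2), monocytes (CD14, CSF1R) and platelets (ITGA2B, PPBP) were present in all 6 libraries.

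Total counts were 17.1, 17.7 and 27.2 mega-counts (M) in high 1, 2 and 3, and 25.9, 22.7 and 16.5 M in low 1, 2 and 3, so that a count of 10 corresponds to 0.363 to 0.609 CPM, where 1 CPM is 1 count in each mega-count of a library after scaling. A set of 37 identifiers of unmatched, short form took 4.54% to 9.00% of the counts in the high and 5.57% to 13.1% in the low libraries, with the larger shares in high 3, low 1 and low 2. The mean share was 6.09 ± 2.52% in high and 10.1 ± 3.98% in low cows (SD, n = 3 each, exact permutation test, 2-sided p = 0.2, adjusted p = 0.6 over 4 library properties), where 3 cows against 3 cannot go below p = 0.1. No library was a copy of another of its class, since counts within a class differed with a chi-square of 59.25 to 364.4 for each degree of freedom.

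The leading axis of variation in these cows did not separate the yield classes. Principal component 1 held 60.5% of the variance, and placed high 1, high 2 and low 3 on its negative side (-77.5, -30.3 and -63.8) and high 3, low 1 and low 2 on its positive side (31.7, 88.8 and 51.0). High 3 therefore lay with the low libraries 1 and 2, and low 3 lay with the high libraries 1 and 2. The 3 libraries on the positive side are also the 3 with the largest total counts and the largest share of short identifiers. A fit with the log2 total count as a covariate, and a fit with the share of short identifiers, each called 0 genes for yield.

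**Figure D1:**
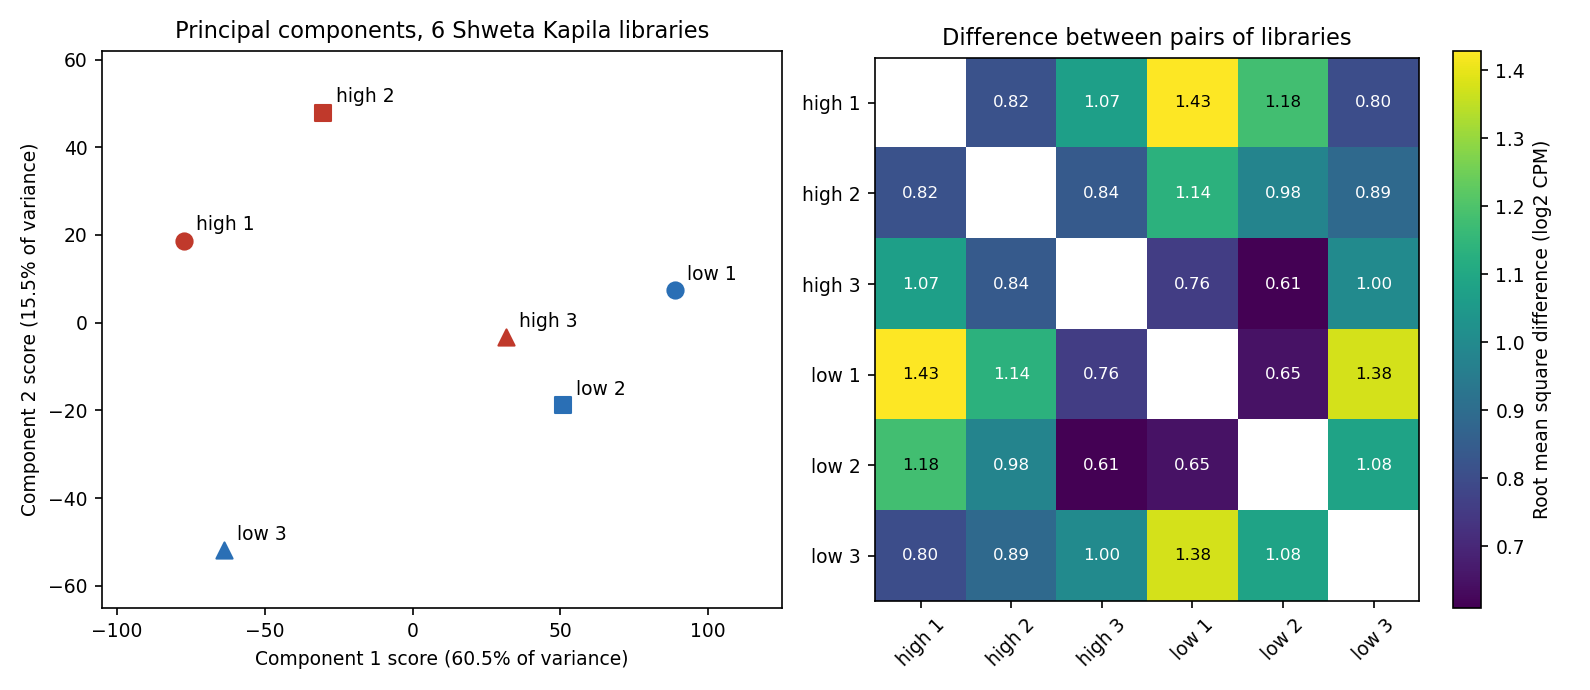
Left, scores of the 6 Shweta Kapila libraries on principal components 1 and 2 of log2 CPM (red, high yield; blue, low yield; circle, square and triangle for replicates 1, 2 and 3). Right, root mean square difference in log2 CPM between each pair over 14787 genes. High 3 and low 2 are the closest pair (0.61), and low 3 is nearer to high 1 (0.80) than to low 1 (1.38).

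The same arrangement held in the differences between single pairs of libraries. Over the genes tested, the root mean square difference in log2 CPM was smallest between high 3 and low 2 (0.61) and between low 1 and low 2 (0.65). It was 0.80 between high 1 and low 3, below the 0.82 between high 1 and high 2. The 2 largest differences were 1.43, between high 1 and low 1, and 1.38, between low 1 and low 3. Gene by gene, high 3 was nearer to the mean of low 1 and low 2 than to the mean of high 1 and high 2 in 10060 of 14787 genes (68.0%). Low 3 was nearer to the mean of high 1 and high 2 in 10755 genes (72.7%), and 7262 genes (49.1%) showed both.

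The genes with the largest loadings on component 1 show how wide this spread was, and since their loadings chose them, their order over the libraries is a description. HNRNPH1, which encodes a splicing regulator, was at 118 CPM in high 1 and 154 CPM in low 3, at 0.523 and 0.400 CPM in high 2 and high 3, and at 0 in low 1 and low 2. Its high value is thus found in 1 cow of each class. The sources used here do not say how reads of near-identical genes were counted, so a count of 0 need not mean that its RNA was absent. ARHGEF4, a guanine nucleotide exchange factor, stood at 29.6, 1.20 and 0.363 CPM in high 1 to 3 and at 0.215, 1.27 and 25.4 CPM in low 1 to 3, again high in high 1 and low 3. At the other end, OGN, a small proteoglycan, was at 0.609, 2.88 and 22.9 CPM in high 1 to 3 and at 12.7, 11.0 and 2.45 CPM in low 1 to 3, with high 3, low 1 and low 2 on top.

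No gene passed the test for a difference between high- and low-yielding Shweta Kapila cows. In edgeR's quasi-likelihood test on the 6 libraries, 0 of 14787 genes (0%) had an adjusted p below 0.05, and the lowest adjusted p (Benjamini-Hochberg) was 0.916. At an unadjusted p below 0.05 there were 441 genes (2.98%), 285 higher (1.93%) and 156 lower (1.05%) in high-yielding cows, where uniform p-values would give 739. The common biological coefficient of variation was 0.451 in these 6 libraries, against 0.259 in the 6 Gir libraries fitted alone. DESeq2 on the same counts called 21 genes (16 higher, 5 lower), among them RGS9, CCL5, PRF1, BEGAIN, SLC14A1, ADGRG1, B3GNT7, AFAP1L2 and BLNK. Limma-voom called 0 genes without sample weights and 1196 with them, where low 3 had the lowest weight. In simulated counts, DESeq2 called 34 genes that had not been changed, and edgeR 3. There edgeR called 0 of 50 genes changed 2-fold and 25 of 50 changed 4-fold. The simulation drew each gene on its own, without the variation shared by many genes that component 1 holds here. It therefore cannot show how often either tool calls or misses genes in these 6 libraries. With 0 genes past the main test, the values below describe these 6 cows.

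All 3 high libraries stood above all 3 low ones in 507 genes (3.43%), and below them in 566 (3.83%). In 332 of the 507 higher genes, high 3 was the lowest of the high libraries, and in 336 of the 566 lower genes it was the highest of them. Even among genes whose classes did not overlap, high 3 was thus most often the high library nearest to the low ones.

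The 15 genes of lowest p among those higher in high-yielding cows were led by RGS9, which encodes a regulator that ends G protein signals. RGS9 was at 64.8, 62.4 and 56.2 CPM in high 1 to 3 and at 18.2, 12.4 and 9.70 CPM in low 1 to 3 (61.1 ± 4.41 against 13.4 ± 4.37 CPM, mean ± SD, n = 3 each). The classes were well apart, and high 3 stood with the other high cows, unlike its place on component 1. The log2 fold change was 2.18 ± 0.35 (SE), with an adjusted p of 0.916 in edgeR.

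CCL5, a chemokine released by cytotoxic lymphocytes, was at 1990 CPM in high 1, 937 in high 2 and 431 in high 3, and at 166, 157 and 148 CPM in low 1 to 3. The low cows were alike and the high cows spread over a wide range, with high 3 nearest to the low ones (log2 fold change 2.84 ± 0.54). PRF1, the pore-forming protein perforin, stood at 426, 388 and 233 CPM in high and at 98.5, 115 and 118 CPM in low cows (1.66 ± 0.33). ADGRG1, an adhesion receptor carried by cytotoxic lymphocytes, stood at 567, 679 and 381 CPM in high and at 195, 183 and 89.4 CPM in low cows (1.80 ± 0.40). For these 3 genes the class ranges did not overlap, and high 3 was the lowest of the high libraries in each.

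SH2D2A, a T cell adaptor protein, was at 130, 117 and 87.2 CPM in high 1 to 3 and at 54.9, 38.2 and 34.3 CPM in low 1 to 3, with a log2 fold change of 1.39 ± 0.33. B3GNT7 and CHST1, enzymes that build and sulfate keratan chains, had log2 fold changes of 2.06 ± 0.48 and 1.64 ± 0.41. Levels of B3GNT7 were 25.3, 37.8 and 11.5 CPM in high and 6.56, 4.86 and 6.47 CPM in low cows, and those of CHST1 were 55.7, 99.4 and 50.2 against 30.03, 21.0 and 14.7 CPM. AFAP1L2, an adaptor protein, differed from these in that high 3 was the highest library, with 34.9, 28.1 and 42.6 CPM in high and 14.4, 13.2 and 8.86 CPM in low cows (1.53 ± 0.35).

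The other 7 genes at the head of the higher side had low counts in the low-yielding cows. SLC14A1, the urea transporter of red cells, was at 3.16, 4.50 and 3.49 CPM in high and at 0.515, 1.00 and 0.836 CPM in low cows (log2 fold change 2.24 ± 0.47). BEGAIN, known from synapses, was at 4.56, 13.9 and 2.80 CPM against 0.215, 0.500 and 0.892 CPM (3.73 ± 0.80), and the gap rested on few reads in the low libraries. RGS16, EMILIN1 and SERPINA1, which encode another regulator of G protein signals, a matrix glycoprotein and alpha-1-antitrypsin, had log2 fold changes of 2.72 ± 0.63, 2.52 ± 0.61 and 3.51 ± 0.95. WDR31 was at 1.74 ± 0.48. RHOD, a small GTPase, was at 2.63 ± 0.69, and at 1.71 without high 1, where it was highest (18.5 CPM).

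On the lower side the genes of lowest p were led by BLNK, an adaptor of the B cell receptor. BLNK was at 31.6, 32.0 and 37.0 CPM in high 1 to 3 and at 66.2, 83.8 and 90.7 CPM in low 1 to 3 (33.5 ± 2.99 against 80.2 ± 12.6 CPM, mean ± SD, n = 3 each). Neither high 3 nor low 3 left its class for this gene, and the log2 fold change was -1.26 ± 0.29. BANK1, a B cell scaffold protein, was at 112, 133 and 175 CPM in high and at 256, 341 and 358 CPM in low cows (-1.18 ± 0.31). BCL11A, a transcription factor of B cells and plasmacytoid dendritic cells, was at 21.3, 25.6 and 31.0 CPM against 42.8, 70.2 and 74.7 CPM (-1.27 ± 0.34). In all 3 genes low 1 was the low library nearest to the high ones, and low 3 the farthest.

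TCF4, which directs plasmacytoid dendritic cell identity, was at 55.5, 55.0 and 101 CPM in high and at 136, 193 and 206 CPM in low cows (log2 fold change -1.34 ± 0.36). The antiviral GTPase MX2 was at 22.8, 28.8 and 43.3 CPM in high and at 129, 54.2 and 129 CPM in low cows (-1.72 ± 0.43). EIF2AK2, a kinase that halts translation on sensing double-stranded RNA, was at 24.5, 33.9 and 56.8 CPM against 172, 89.1 and 86.1 CPM (-1.59 ± 0.44). The classes did not overlap for any of the 3, and high 3 was the highest of the high libraries in each.

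Another 9 genes complete the 15 of lowest p on this side. NEB (nebulin, a muscle filament protein) and COBLL1 had log2 fold changes of -1.81 ± 0.46 and -1.85 ± 0.53. SLC6A4, the serotonin transporter that platelets carry, was at 9.74, 5.60 and 9.60 CPM in high and at 15.8, 27.3 and 19.6 CPM in low cows (-1.33 ± 0.39). BHLHE41, a transcription factor, was at -1.01 ± 0.30, PKIA, an inhibitor of protein kinase A, at -1.73 ± 0.50, and VWA3B at -2.03 ± 0.53. HPGDS, the prostaglandin D synthase of mast cells and basophils, was at -1.80 ± 0.55. It stood at 0.609, 0.314 and 0.545 CPM in high and at 1.37, 2.46 and 1.34 CPM in low cows. PKIA, VWA3B and HPGDS were each below 1 CPM in every high cow, so their gaps rest on few reads. SYCP2 was at -2.73 ± 0.78 and was the 1 gene of these 15 whose classes overlapped, with 1.10 CPM in high 2 and 0.948 CPM in low 3. CCL1, a chemokine of activated T cells, was at 0.122, 0.576 and 0 CPM in high and at 3.56, 1.64 and 2.29 CPM in low cows (-3.45 ± 1.04, and -5.49 without high 2).

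**Figure D2:**
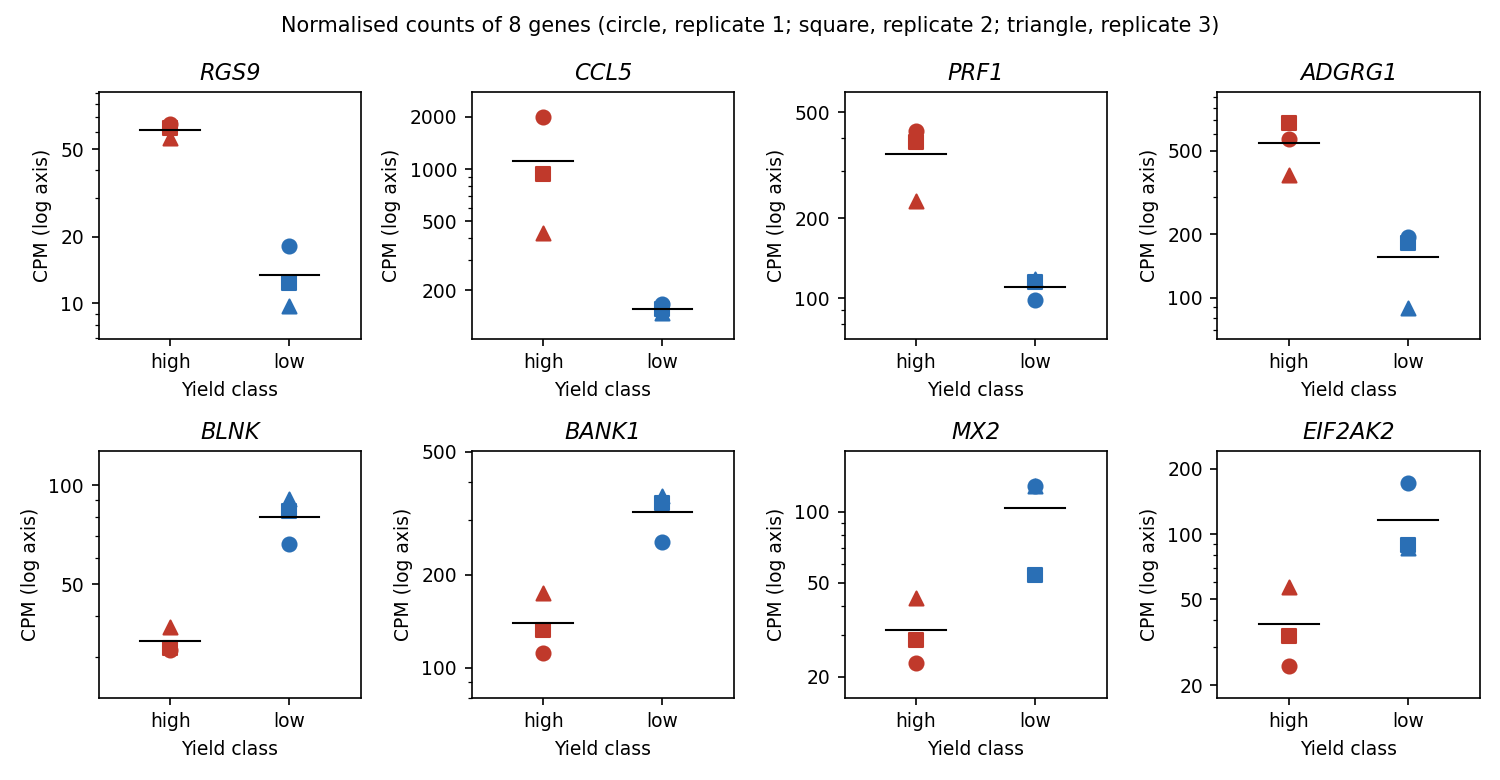
CPM (log axis, a separate range in each panel) of 8 genes in the 3 high-yielding (red) and 3 low-yielding (blue) Shweta Kapila cows. Each point is a library and each line the mean of 3; RGS9, CCL5, PRF1 and ADGRG1 are above, and BLNK, BANK1, MX2 and EIF2AK2 below, and in none of the 8 do the classes overlap.

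Cytotoxic lymphocyte genes stood higher in the high-yielding cows as a list. Of 24 NK and cytotoxic genes tested, 19 were higher and 5 lower in high-yielding cows, with a median log2 fold change of 0.64, where the median over all 14787 genes was -0.03 and 48.0% of genes were higher and 52.0% lower. At an unadjusted p below 0.05, 10 of the 24 were higher and 0 lower, against 1.93% and 1.05% of all genes, and 0 passed the adjusted test in edgeR. The classes did not overlap in 9 of the 24, all of them higher, against 3.43% of all genes. Among the 9 effectors (perforin, granzymes and other granule proteins, interferon gamma and FASLG) 8 were higher, with a median of 1.34.

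By library, the summed level of these 24 genes was 6070, 5482 and 4142 CPM in high 1 to 3 and 3863, 2703 and 1760 CPM in low 1 to 3. The sum thus ranked every high cow above every low cow, with high 3 and low 1 close to each other. Low 3 was the lowest of the 6 libraries in 13 of the 24 genes, where it was the lowest in 17.3% of all genes. CTSW, a protease of cytotoxic cells, was at 417, 217 and 110 CPM in high and at 57.8, 80.9 and 79.5 CPM in low cows (log2 fold change 1.77 ± 0.48, and 1.17 without high 1). Not all cytotoxic genes followed it. EOMES, a transcription factor of this lineage, was at 25.4, 21.6 and 17.2 CPM in high and at 31.0, 27.8 and 24.4 CPM in low cows, and the fractalkine receptor gene CX3CR1 at 440, 838 and 1056 CPM against 1144, 653 and 144 CPM, so that their classes overlapped.

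T cell genes stood in the same direction with smaller differences. Of 24 tested, 17 were higher and 7 lower, with a median log2 fold change of 0.50, and 6 were higher at an unadjusted p below 0.05 (0 lower), against 1.93% of all genes. The classes did not overlap in 8, all higher, against 3.43% of all genes. The 8 genes of the receptor complex had a median of 0.72, while 5 of the 7 genes of T cell identity and homing, such as LEF1 and IL7R, were on the lower side, with a median of -0.10. Without high 1, high 2 or low 2, the count of higher genes at an unadjusted p below 0.05 was 1, 2 and 2. Over all genes, 162 of 15512, 135 of 15467 and 146 of 14953 were higher at that bound in these fits. The main fit had 285 of 14787.

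CD3E, a chain of the CD3 complex, was at 1513, 1100.3 and 966 CPM in high 1 to 3 and at 791, 759 and 626 CPM in low 1 to 3 (log2 fold change 0.72 ± 0.31). CD6, a T cell surface receptor, was at 402, 311 and 207 CPM against 160, 133 and 119 CPM (1.16 ± 0.34). LAT and LCK, the adaptor and the kinase next to the T cell receptor, had log2 fold changes of 1.07 ± 0.35 and 0.88 ± 0.32. In none of these 4 did the classes overlap. CD4, the co-receptor of helper T cells, did not separate the classes, at 224, 227 and 289 CPM in high and 186, 206 and 236 CPM in low cows. Summed over the 24 genes, T cell levels were 8713, 7916 and 7278 CPM in high and 7401, 6285 and 4505 CPM in low cows, so that low 1 stood above high 3. Low 3 was the lowest library in 16 of the 24 genes.

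Genes through which lymphocytes take cytokine signals included some with the same pattern. Of 32 cytokine and chemokine receptor genes tested, 24 were higher and 8 lower, with a median log2 fold change of 0.23. At an unadjusted p below 0.05, 3 were higher and 1 lower, against 1.93% and 1.05% of all genes. IL12RB1, a chain of the interleukin 12 receptor, was at 162, 162 and 84.1 CPM in high and at 65.3, 60.5 and 63.1 CPM in low cows (1.11 ± 0.34). IL2RB, which is also in the cytotoxic list, was at 411, 517 and 365 CPM against 249, 224 and 194 CPM (0.96 ± 0.29). CXCR6, a homing receptor, was at 1.10 ± 0.40, with high 3 (75.7 CPM) below low 1 (84.1 CPM). IL23R went the other way (-2.14 ± 0.86), at no more than 0.419 CPM in high and 0.892 to 1.42 CPM in low cows. Its level was below 10 counts in every high cow. TNF, the inflammatory cytokine, was at 43.8, 49.6 and 27.8 CPM in high and at 19.3, 19.0 and 15.1 CPM in low cows (1.18 ± 0.34), while the 20 inflammatory genes as a whole had 10 higher and 10 lower.

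B cell genes were mostly lower in the high-yielding cows, and their level was set apart in 1 low-yielding cow. Of 20 tested, 19 were lower and 1 higher, with a median log2 fold change of -0.88, and 8 were lower at an unadjusted p below 0.05 (1.05% of all genes). The classes did not overlap in 8, all lower, against 3.83% of all genes. The summed level was 1696, 1689 and 1571 CPM in high 1 to 3 and 1525, 2514 and 5128 CPM in low 1 to 3. Low 3 was the highest library in 17 of the 20 genes, where it was the highest in 18.7% of all genes, and low 1 stood with the high cows. Without high 1, high 2, high 3 or low 3, the count of lower genes at an unadjusted p below 0.05 was 5, 4, 5 and 5, and without low 1 it was 13. Over all genes, 108 of 15512, 80 of 15467, 468 of 14965 and 914 of 15364 were lower at that bound in the first 4 fits. The fit without low 1 had 187 of 15001, and the main fit 156 of 14787.

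Members of the list differed in how far they rested on low 3. CD79A, the signalling chain of the B cell receptor, was at 303, 234 and 179 CPM in high and at 118, 272 and 1059 CPM in low cows, and its log2 fold change of -1.02 ± 0.71 turned to 0.29 without low 3. CD74, the invariant chain of class II antigen presentation and a gene of the antigen presentation list, had 11436 CPM in low 3 and between 2849 and 5441 CPM in the other 5 libraries. BLNK, BANK1 and BCL11A, by contrast, were higher in low 1 and low 2 than in every high cow. JCHAIN, which joins secreted antibodies and marks plasma cells, was at 76.4, 175 and 230 CPM in high and at 253, 275 and 238 CPM in low cows (log2 fold change -0.67 ± 0.41), with high 3 next to low 3, and the value was -0.33 without high 1 and -1.02 without high 3.

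The summed levels of neutrophil and monocyte markers overlapped between the classes. Summed neutrophil genes (19 genes, 17 of them tested) ran from 2792 to 6763 CPM in high and from 3634 to 4413 CPM in low cows, with both extremes in high cows. Monocyte genes (13 genes, 12 of them tested) ran from 1770 to 2892 CPM in high and from 1841 to 3096 CPM in low cows. At an unadjusted p below 0.05 there were 0 neutrophil, 0 monocyte and 0 platelet genes, and SLC14A1 was the 1 erythroid gene of 21. Over all genes, 1.93% were higher and 1.05% lower at that bound. Of 7 eosinophil and basophil genes, HPGDS was the 1 at that bound, lower and without overlap (3.83% of all genes), but on few reads. Of 10 dendritic cell genes, BLNK and TCF4 were lower and DCSTAMP higher at the same bound. DCSTAMP, a fusion receptor of dendritic cells and osteoclasts, was at 67.9, 15.02 and 2.11 CPM in high and at 2.57, 2.14 and 3.74 CPM in low cows, so its log2 fold change of 3.33 ± 1.05 became 1.61 without high 1. These marker levels are measured values of the same libraries, and their part in the lymphocyte differences was not tested.

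Interferon-response genes were more often lower in the high-yielding cows. Of 40 tested, 27 were lower and 13 higher, with a median log2 fold change of -0.38, and 7 were lower at an unadjusted p below 0.05 (0 higher), against 1.05% of all genes. The classes did not overlap in 9, all lower, against 3.83% of all genes. The summed levels overlapped, at 6006, 4196 and 5913 CPM in high 1 to 3 and 8488, 6481 and 5805 CPM in low 1 to 3. Low 1 was the highest library in 21 of the 40 genes, where it was the highest in 28.0% of all genes. By role, 15 of 20 effectors and 6 of 8 sensors were lower, while the 12 signalling genes were split evenly, 6 on each side. The count of lower genes at an unadjusted p below 0.05 was 4 without high 1, 2 without high 2, 4 without low 1, and 13 without low 3. Over all genes, 108 of 15512, 80 of 15467, 187 of 15001 and 914 of 15364 were lower at that bound in these fits. The main fit had 156 of 14787, so the background rose as well without low 3.

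MX1, the dynamin-like antiviral protein encoded beside MX2, was at 213, 143 and 232 CPM in high 1 to 3 and at 391, 289 and 509 CPM in low 1 to 3, with a log2 fold change of -1.01 ± 0.34. As for MX2 and EIF2AK2 above, no high cow reached the level of a low cow. NLRC5, the activator of class I antigen presentation genes, was higher in every high cow, at 632, 572 and 548 CPM against 395, 388 and 412 CPM (0.55 ± 0.27).

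Ribosomal protein genes stood mostly higher in the high-yielding cows without separating the classes. Of 71 genes for proteins of the cytosolic ribosome, 70 were higher and 1 lower in high-yielding cows, with a median log2 fold change of 0.58. Yet 1 of the 71 reached an unadjusted p below 0.05 (RPS29, higher), against 1.93% of all genes. The classes did not separate in any of the 71. Their summed level was 63475, 53551 and 29516 CPM in high 1 to 3 and 26223, 27187 and 46593 CPM in low 1 to 3. High 3 was near low 1 and low 2, and low 3 stood between the other high cows and them. High 3 was nearer to low 1 and low 2 in 65 of the 71, low 3 was nearer to high 1 and high 2 in 57, and both held in 53, where the shares of all genes were 68.0%, 72.7% and 49.1%.

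RPL13A, a large-subunit protein, shows the pattern, at 1788, 1666 and 622 CPM in high and 403, 417 and 1076 CPM in low cows (log2 fold change 1.10 ± 0.54, and 1.73 without low 3). FAU, which is processed to a small-subunit protein, was at 471, 325 and 120 CPM against 66.0, 81.2 and 240 CPM (1.24 ± 0.63, with 0.79 without high 1 and 2.05 without low 3). RPS29 was at 23.0, 20.6 and 0.545 CPM in high and at 0.472, 0.546 and 2.12 CPM in low cows (3.82 ± 1.22), so that high 3 was below low 3. Ribosomal protein genes have many near-identical copies in the genome, and the sources used here do not say how the counting divided reads among them.

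Nuclear genes of oxidative phosphorylation, the respiratory chain of mitochondria, went the same way. Of 67 tested, 53 were higher and 14 lower, with a median log2 fold change of 0.47. At an unadjusted p below 0.05, 1 was higher and 0 lower, against 1.93% and 1.05% of all genes, so the list was not above those shares. That gene, NDUFS5 of complex I, was at 38.1, 36.2 and 32.0 CPM in high and at 16.9, 19.4 and 25.7 CPM in low cows (0.78 ± 0.31), without overlap. UQCRH, of complex III, was at 42.0, 39.4 and 15.8 CPM against 13.1, 13.9 and 24.4 CPM (0.92 ± 0.46), with high 3 below low 3. High 3 was nearer to low 1 and low 2 in 55 of the 67 genes (82.1%), against 68.0% of all genes. Low 3 was nearer to high 1 and high 2 in 51 (76.1%), close to the 72.7% of all genes.

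Heat shock and chaperone genes took the opposite side. Of 34 tested, 30 were lower and 4 higher, with a median log2 fold change of -0.43. At an unadjusted p below 0.05 there were 0, against 1.93% higher and 1.05% lower of all genes, and in a list of 34 a count of 0 is close to those shares. The classes did not overlap in 2, each lower, against 3.83% of all genes. HSPA9, the mitochondrial chaperone mortalin, was at 116, 97.3 and 181 CPM in high and at 260, 237 and 154 CPM in low cows (-0.72 ± 0.36), with high 3 above low 3. HSP90B1, a chaperone of the endoplasmic reticulum, was at 362, 323 and 698 CPM against 981, 1025 and 381 CPM (-0.79 ± 0.48, and -1.22 without high 3). With the share of short identifiers as a covariate, the median log2 fold changes of the ribosomal, oxidative phosphorylation and heat shock lists were -0.03, -0.12 and 0.11, each on the other side of 0. The medians of the T cell, NK and cytotoxic, B cell and interferon lists kept their sign in every alternative fit run, but not their size. Keeping the sign was not particular to them. It also held for the plasma cell, dendritic cell, eosinophil and basophil, cytokine and chemokine receptor, fatty acid oxidation, and linker histone and histone variant lists. With single libraries left out, the NK and cytotoxic median ran from 0.39 (without high 2) to 1.10 (without low 1), and the B cell median from -1.26 (without low 1) to -0.43 (without low 3). The interferon median was -0.12 without low 1 and -0.10 with the share of short identifiers as a covariate. The ribosomal median ran from 0.35 (without high 1) to 0.98 (without low 3), that of oxidative phosphorylation from 0.12 to 0.76 (the same libraries), and the heat shock median from -0.60 (without high 3) to -0.25 (without low 1).

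**Figure D3:**
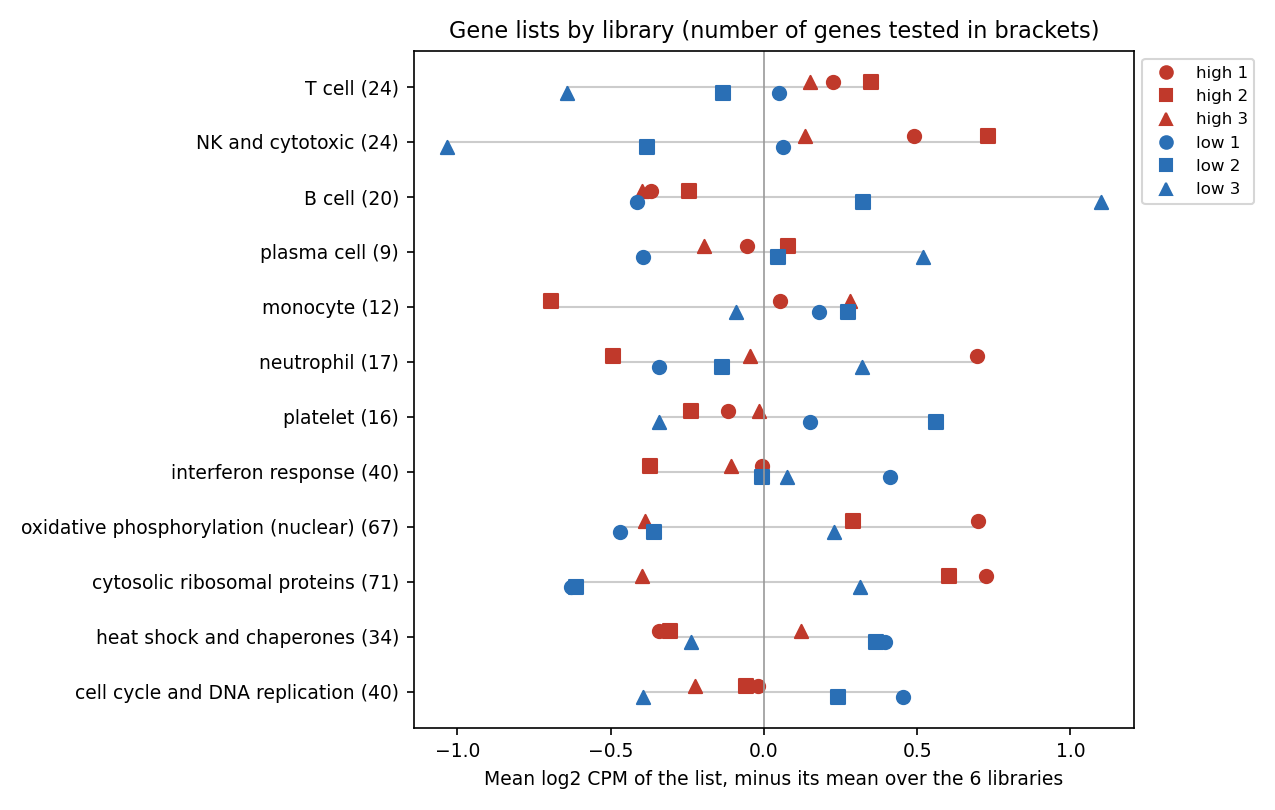
Mean log2 CPM of 12 gene lists in each of the 6 Shweta Kapila libraries, less the mean of the list over the 6 (red, high yield; blue, low yield). In the NK and cytotoxic and the T cell lists all 3 high libraries lie to the right of all 3 low ones, whereas in the ribosomal list high 3 lies with low 1 and low 2, and low 3 toward high 1 and high 2.

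How far a list followed the arrangement of the libraries varied between lists. In the B cell list 10 of 20 genes had high 3 nearer to low 1 and low 2, and 7 of 20 had low 3 nearer to high 1 and high 2. In the NK and cytotoxic list these counts were 14 and 10 of 24, and in the T cell list 16 and 13 of 24. In the heat shock list they were 27 and 30 of 34. The shares over all genes, 68.0% and 72.7%, lie between those of the lymphocyte lists and those of the heat shock list. The high 3 share of the T cell list, 66.7%, was close to that of all genes. Low 3 shares under that of all genes were found in other lists too, as in the milk synthesis (57.9%), growth hormone (63.6%) and cytokine receptor (65.6%) lists.

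**Figure D4:**
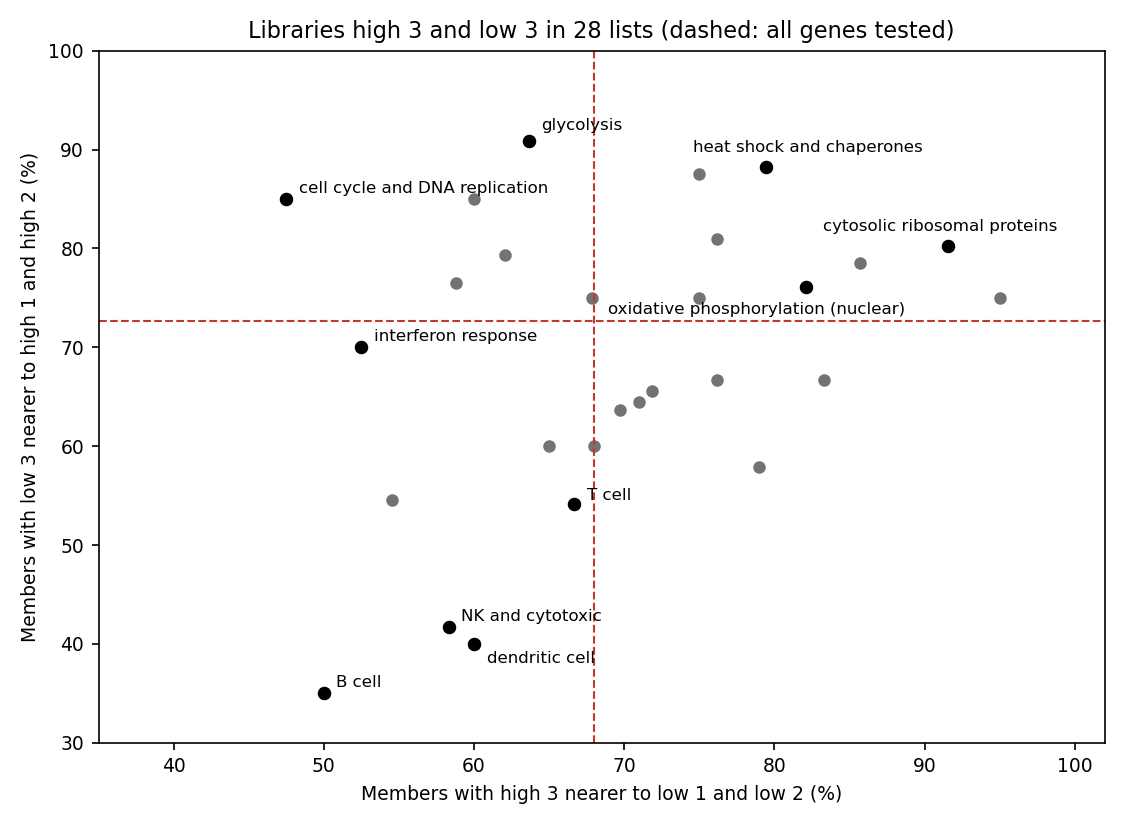
For each list with at least 10 genes tested, the percentage of genes in which high 3 was nearer to low 1 and low 2 (horizontal axis) and in which low 3 was nearer to high 1 and high 2 (vertical axis). Dashed lines mark all 14787 genes (68.0% and 72.7%). B cell, dendritic, NK and cytotoxic, and T cell lists lie below the horizontal line, as do several other lists. Ribosomal and heat shock lists lie above it and to the right.

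The hormone pathway of growth hormone, prolactin and insulin acts through receptors, JAK and STAT transducers and SOCS inhibitors, and carries the signals that sustain lactation. Of its 33 genes tested, 16 were higher and 17 lower, with a median log2 fold change of -0.01. At an unadjusted p below 0.05, 1 was higher and 0 lower, against 1.93% and 1.05% of all genes. The classes did not overlap in 4, all higher, against 3.43% of all genes. The gene at that bound, GRB10, an adaptor that dampens insulin signals, was at 8.16, 4.92 and 4.80 CPM in high and at 1.63, 3.91 and 2.84 CPM in low cows (1.09 ± 0.47), without overlap. SOCS2, an inhibitor of growth hormone signals, was at 10.2, 10.8 and 7.78 CPM against 23.4, 27.6 and 8.36 CPM (-1.04 ± 0.47), with low 3 near the high cows. PRLR, the prolactin receptor, was at 9.19, 7.75 and 10.8 CPM in high and at 9.74, 12.8 and 21.0 CPM in low cows (-0.65 ± 0.40, and -0.28 without low 3). CISH, another inhibitor of the SOCS family, was at 75.4, 58.0 and 20.4 CPM against 11.0, 18.0 and 48.1 CPM (1.00 ± 0.64, with 0.62 without high 1, 0.64 without low 1 and 1.82 without low 3), with high 1, high 2 and low 3 the 3 highest libraries.

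Of 19 genes of milk synthesis and milk quantitative trait loci tested, 8 were higher and 11 lower, with a median of -0.02. At an unadjusted p below 0.05 there were 0, where 1.93% of all genes were higher and 1.05% lower. The milk protein genes CSN2, CSN3 and LALBA had no count in any of the 6 libraries. FABP3, a fatty acid carrier, was at 76.1, 65.7 and 20.1 CPM in high and at 33.7, 27.96 and 23.3 CPM in low cows (0.93 ± 0.49, and 0.60 without high 1). PLIN2, the lipid droplet coat protein, was lower in every high cow, at 47.9, 21.4 and 59.3 CPM against 64.6, 71.9 and 71.5 CPM (-0.69 ± 0.40, and -0.37 without high 2). Among 28 genes of fatty acid oxidation 12 were higher and 16 lower. CPT1A, which admits fatty acids to mitochondria, was at 0.68 ± 0.38 (0.31 without high 1), and PDK4, which spares glucose, at -0.20 ± 0.53.

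Stress and activation genes were split. Of 14 glucocorticoid-response genes, DDIT4 and PIK3IP1, both brakes on growth signalling, were higher at an unadjusted p below 0.05 (1.93% of all genes). DDIT4 was at 52.9, 48.1 and 21.8 CPM in high and at 18.4, 17.2 and 18.2 CPM in low cows (log2 fold change 1.19 ± 0.39), and PIK3IP1 at 138, 129 and 62.4 CPM against 33.6, 43.8 and 73.4 CPM (1.13 ± 0.43). High 3 lay close to the low cows in both. Of 21 immediate early genes, FOSL2 was higher (0.94 ± 0.41) and MYC lower (-0.81 ± 0.32) at that bound, against 1.93% and 1.05% of all genes. MYC was at 97.3, 96.6 and 122 CPM in high and at 132, 181 and 240 CPM in low cows. Of 40 cell cycle genes 28 were lower and 12 higher. At an unadjusted p below 0.05 there were 0 on either side, where 1.93% of all genes were higher and 1.05% lower.

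The yield difference in Shweta Kapila was set against that in Gir by an interaction test over all 12 libraries. No gene passed it: 0 of 15420 genes (0%) had an adjusted p below 0.05 in edgeR, and the lowest adjusted p was 0.955. At an unadjusted p below 0.05 the Shweta Kapila difference was the more positive in 362 genes (2.35%) and the more negative in 225 (1.46%). This fit shares 1 spread per gene between the breeds. Fitted apart, the common biological coefficient of variation was 0.451 in Shweta Kapila and 0.259 in Gir. With all 12 libraries, the Shweta Kapila yield difference alone had 1077 genes at an unadjusted p below 0.05, against 441 in the 6-library fit. Unadjusted p-values of the interaction carry that limit. DESeq2 called 9 genes in the interaction test, CCL5 and BEGAIN among them.

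Values in Gir are given beside those of Shweta Kapila for the 15 genes of lowest p on each side, and below for lists and 3 other genes. Of the 15 genes leading the higher side in Shweta Kapila, SERPINA1 was at 0 in all high-yielding Gir cows and has no Gir fold change. Of the other 14, 5 were higher and 9 lower in high-yielding Gir cows, with Gir log2 fold changes between -0.63 (CCL5) and 0.68 (EMILIN1). Of the 15 leading the lower side, 5 were higher and 10 lower in Gir. These genes were picked for their low p in Shweta Kapila, so their larger differences there are a description and carry no test. CCL5 averaged 127 ± 48.0 CPM in high and 198 ± 124 CPM in low Gir cows, and PRF1 71.1 ± 24.0 and 97.5 ± 39.3 CPM (SD, n = 3 each). RGS9 was at 23.9 ± 3.48 and 23.2 ± 10.4 CPM in Gir. Low-yielding Shweta Kapila cows, at 157 ± 9.13 CPM for CCL5 and 110.4 ± 10.5 CPM for PRF1, lay in the range of the Gir cows for both.

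**Figure D5:**
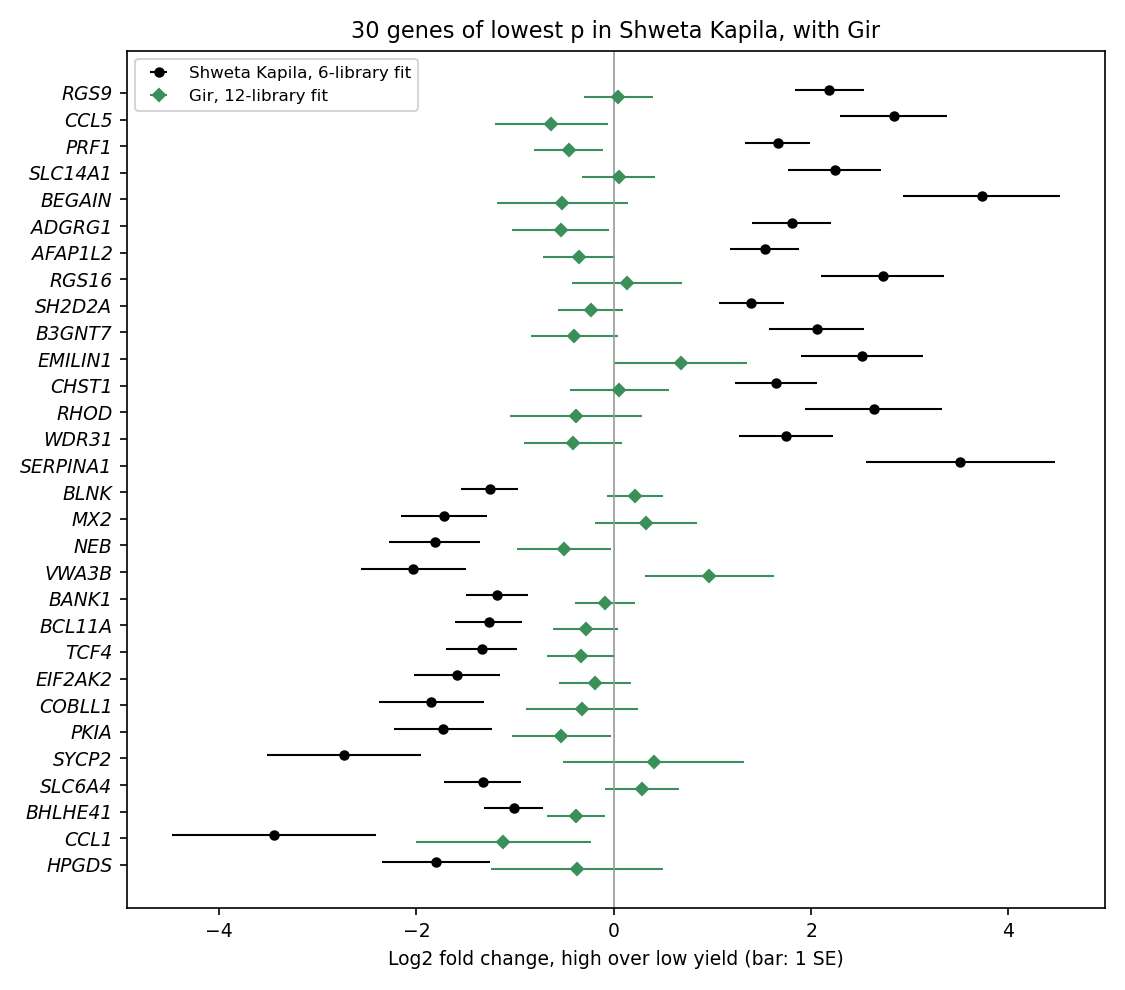
Log2 fold change, high over low yield, with 1 SE for the 15 genes of lowest p on each side in Shweta Kapila (black circles, fit of 6 libraries) and the same genes in Gir (green diamonds, fit of 12 libraries; none for SERPINA1, which is at 0 in high-yielding Gir cows). The Shweta Kapila values run from 1.39 to 3.73 above and from -3.45 to -1.01 below, and the Gir values of the same genes lie on both sides of 0.

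By list, 10 of the 24 NK and cytotoxic genes and 8 of the 24 T cell genes had a Shweta Kapila difference more positive than that in Gir at an unadjusted p below 0.05 (2.35% of all genes), and 0 had a more negative one. The median log2 fold changes in Gir were -0.22 and -0.19 for these lists, with 20 and 21 of the 24 genes lower in high-yielding Gir cows. For B cell genes the Gir median was -0.13, and 3 of 20 had a Shweta Kapila difference more negative at that bound (1.46% of all genes). Monocyte genes had a median of 0.59 in Gir, with 11 of 12 higher, beside -0.34 in Shweta Kapila, where the median was -0.05 without high 2 and 0.02 with the share of short identifiers as a covariate. PDK4 had a log2 fold change of 2.38 ± 0.49 in Gir, and the Shweta Kapila difference was smaller by -2.57 ± 0.66 on the log2 scale (unadjusted p = 0.0021 in edgeR's interaction test, above the threshold after adjustment). Other named genes had the same sign in the 2 breeds. CPT1A was at 1.20 ± 0.32 in Gir beside 0.68 in Shweta Kapila, and DCSTAMP at 2.89 ± 0.94 beside 3.33. Gir values of the remaining named genes are not printed.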

How the data were processed

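The deposited table holds expected counts per gene, 57.0% of them not whole (tolerance 1e-06), and the authors applied no scaling that the column totals show. Per the labels' protocols, ribosomal RNA was removed and libraries mark strand. Per the submitters' processing notes, Trimmomatic and FastQC were used. The aligner, counter, strand setting and build were not given in the sources used here, so reads of near-identical, overlapping or antisense genes may be split in unknown ways. Of 26229 identifiers, 22754 (86.8%) matched a RefSeq gene table of NIAB-ARS_B.indTharparkar_mat_pri_1.0, which served for gene names alone. The 37 identifiers of 7 or 8 digits matched no name and were kept.

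Counts were rounded and fitted on the 6 Shweta Kapila libraries with edgeR 4.0.16 in R 4.3.3 (filterByExpr with groups, minimum count 10 and total 15; TMM; robust quasi-likelihood; 2-sided; Benjamini-Hochberg over 14787 genes; false discovery rate 0.05). The Gir values and the interaction come from 1 fit of all 12 libraries, with 1 spread per gene for both breeds. Principal components used log2 CPM with a prior count of 2. DESeq2 1.42.0 and limma-voom 3.58.1 were alternatives. Permutation tests used SciPy 1.17.1, and plots matplotlib 3.10.9. The fitting scripts were tested on simulated counts, with 50 genes changed at each of 2-, 4-, 8- and 16-fold. Of these, edgeR called 0, 25, 42 and 47, and DESeq2 6, 39, 46 and 48. Among unchanged genes, edgeR called 3 and DESeq2 34. Each gene was drawn independently, so the simulated counts lack the shared variation of component 1.

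The members, gene lists and tests were chosen with earlier results of these data known, and lists are described by counts beside all genes, without a test of the list. Genes were named by rule: the 15 lowest p on each side (symbol, mean at least 1 CPM), the 3 lowest p per list and direction, fixed markers, the 10 largest non-overlapping fold changes per side and the 10 largest component 1 loadings per side. Fold changes of some rule-named genes are not printed. Replicate numbers were checked for pairing: same-numbered high and low libraries deviated with correlations of -0.55, -0.14 and -0.59. High 1 and low 1, and high 3 and low 3, lie on opposite sides of component 1, which holds most of the variance. The check therefore cannot exclude a smaller effect shared by replicate number, and the main fit used no pairing. Promoter motifs were not analysed here, and some genes under the naming rule are not reported here.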

Additional observations from a re-analysis of the deposited data

How the results depend on the processing

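The count of 0 genes called for yield held in every alternative run except DESeq2 (21) and limma-voom with sample weights (1196). That weighted fit gave library low 3 a weight of 0.281 and low 2 a weight of 6.55, and limma-voom without weights called 0. The count at an unadjusted p below 0.05 (441) ran from 215 to 2965 when single libraries were left out, with 2965 without low 3, 1055 without high 3, 270 without high 1, 231 without low 2 and 215 without high 2. It was 712 without a filter, 267 at 5 CPM in 3 libraries, 1077 with all 12 libraries, 5074 in weighted limma-voom, 1445 with the log2 total count and 1065 with the share of short identifiers as a covariate. The replicate block gave 0 called genes and 185 at an unadjusted p below 0.05. In the interaction test DESeq2 called 9 genes, and leaving out single Shweta Kapila libraries gave 0 to 1, the 1 being TMTC2 without low 1. The causes of these changes were not tested.

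Of the genes whose fold changes are printed, CD79A turned without low 3 and ran from -1.48 to 0.29 over the libraries left out. PDK4 ran from -0.64 to 0.18 and also turned with the total count (0.0063) and the share of short identifiers (0.70) as a covariate. With that share, CISH (-0.13) and HSP90B1 (0.092) turned too, and the platelet list median was 0.22, beside -0.47. Motif counts in promoters were not run.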

Other observations

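Some genes named for their loadings on component 1 differed widely between cows of the same class. TRMT61A, a transfer RNA methyltransferase, was at 12.9, 5.97 and 1.31 CPM in high 1 to 3 and at 0.172, 0.864 and 11.0 CPM in low 1 to 3. PKD2L2, a channel protein, was at 12.8, 27.9 and 0.509 CPM against 0.686, 1.32 and 13.9 CPM. CDH1, the epithelial cadherin, was at 0.852, 2.25 and 13.96 CPM against 6.09, 11.8 and 0.781 CPM. ARG1, an arginase, was at 0, 7.69 and 6.94 CPM against 3.48, 2.82 and 0 CPM. Since their loadings chose these genes, their order over the libraries is a description and adds no support to that component.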
